A study of Mus musculus with 17 samples.

Results

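Collagen chain genes were compared between normal, mdx and fiona mice in the tibialis anterior, the shin muscle that lifts the foot. They were taken as every gene whose symbol consists of Col, a number, the letter a and a number. This gave 36 of the 12393 genes measured, with 58 probe sets on the array, several of them for 19 of the genes. Where a gene had several, the brightest on average across the 17 arrays stood for it. By class, 9 of the genes encode fibrillar collagens, 9 fibril-associated collagens, 6 collagen IV, 3 collagen VI, 3 transmembrane collagens, 2 multiplexins (Col15a1 and Col18a1) and 2 short-chain network collagens (Col8a1 and Col10a1). Col7a1 and Col26a1 made up the remaining 2.

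Collagens are proteins of 3 chains wound into a helix, and the chains of 1 type are often encoded by separate genes. Fibrillar collagens form the cables of the interstitial matrix of muscle, collagen IV forms the network of the basement membrane around each fibre, and collagen VI forms beaded filaments that join the basement membrane to the interstitium. In muscle most collagen is made by fibroblasts and fibro-adipogenic cells, and its build-up in dystrophic muscle is known as fibrosis.

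The normal group held 6 arrays of wild-type muscle. The mdx group held 6 arrays of muscle from mdx mice, which lack dystrophin through a mutation in Dmd. The fiona group held 5 arrays from a transgenic line that makes much utrophin, a relative of dystrophin, on the mdx background, so both of these groups share the mdx mutation. Per the labels all animals were males aged 56 days, the muscles of both legs were pooled, 8 µg of RNA was labelled per array, and each array was a biological replicate. The sources used here do not name the transgene's promoter, its founder animals or the strain of the normal mice. Per the labels the question was how expression in mdx muscle differs from normal muscle and how the fiona line compares.

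Values are log2 expression as deposited, so a difference of 1 is a doubling of the signal. Array medians lay between 3.52 and 3.82, and precision is limited by how many arrays each group has. Muscle fibre markers averaged 14.4 to 14.8 on every array. Dmd ran from 7.42 to 9.29 on normal arrays, from 4.12 to 6.30 on mdx arrays and from 4.20 to 6.70 on fiona arrays. Utrn has 3 probe sets, and the one that stood for the gene did not separate the groups (6.45 to 7.59 on mdx and 5.21 to 7.36 on fiona arrays). The sources do not say whether it detects the transgene. On 7 arrays labelled male (1 normal, 2 mdx and 4 fiona) Xist was high and the Y-linked gene Eif2s3y low, a female pattern. They were normal 6, mdx 1 and 4, and fiona 1, 2, 3 and 5. Within groups, arrays also separated into 2 sets by the sign of the first residual component, which held 42.5% of the residual variance. Set 1 held normal 3, 4 and 5, mdx 3, 4 and 5, and fiona 1 and 4, and set 2 held the other arrays. These sets were found in the data, and no label gives a batch.

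The lower end of the scale was read from 15 bacterial control probe sets that match no mouse RNA. Their median on an array is called the control level, and the highest of them the brightest control. Of the 36 collagen genes, 22 had a mean above the mean of the brightest control and 14 at or under it. Col4a3, Col10a1, Col25a1 and Col26a1 lay at or under the control level on all 17 arrays. Levels of different genes come from different probes and are not set against each other.

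**Figure D1:**
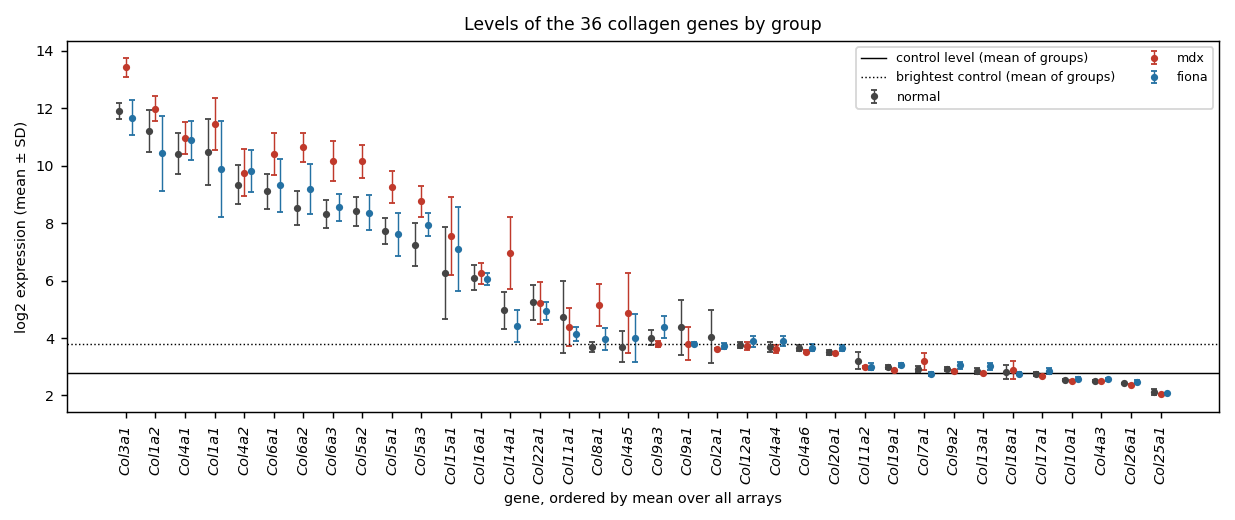
Mean log2 expression with SD of each of the 36 collagen genes in normal (n = 6), mdx (n = 6) and fiona (n = 5) muscle, with the control level and the brightest control as lines. The mdx mean is the highest of the 3 groups for Col3a1, the collagen V and VI genes, Col14a1 and Col8a1, and 14 genes lie at or under the brightest control.

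Col3a1 (fibrillar), Col6a3 (collagen VI) and Col8a1 (short-chain) were called higher in mdx and lower in fiona muscle and come from 3 classes, and their promoter sequences are shown for that reason. Each is the 250 bases before the RefSeq start of the gene in GRCm38.p6, written 5′ to 3′ on the strand of the gene. Capitals mark matches on either strand to 3 motifs. These were the TATA box motif TATAAA, the motif CCAAT and the GC box motif GGGCGG, whose other strand reads CCGCCC. Col3a1 lies on the plus strand at chr1:45311288-45311537, Col6a3 on the minus strand at chr1:90843972-90844221 and Col8a1 on the minus strand at chr16:57754738-57754987.
Col3a1: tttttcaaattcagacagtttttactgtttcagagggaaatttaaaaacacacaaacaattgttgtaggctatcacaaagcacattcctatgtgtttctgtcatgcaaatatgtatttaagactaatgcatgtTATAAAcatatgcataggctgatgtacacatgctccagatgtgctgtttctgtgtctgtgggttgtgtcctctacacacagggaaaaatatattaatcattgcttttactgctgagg
Col6a3: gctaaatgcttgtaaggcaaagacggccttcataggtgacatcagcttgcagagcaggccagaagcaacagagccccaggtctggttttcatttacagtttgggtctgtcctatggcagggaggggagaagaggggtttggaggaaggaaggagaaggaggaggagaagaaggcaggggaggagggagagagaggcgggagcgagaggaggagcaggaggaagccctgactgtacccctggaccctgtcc
Col8a1: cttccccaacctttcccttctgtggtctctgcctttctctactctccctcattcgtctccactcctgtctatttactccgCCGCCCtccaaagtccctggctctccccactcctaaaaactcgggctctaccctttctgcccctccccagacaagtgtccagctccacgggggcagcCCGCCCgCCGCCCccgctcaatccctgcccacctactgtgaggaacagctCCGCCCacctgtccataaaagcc
The Col3a1 window held 1 match, to TATAAA. The Col8a1 window held 4 matches, all to GGGCGG, and the Col6a3 window held 0 matches. RefSeq windows were found for 27 of the 36 genes (30 windows). TATAAA was in 5 of these 30 windows (16.7%) and in 12.4% of all 32851 mouse windows of that length. CCAAT was in 40% of collagen windows and 33.8% of all windows, and GGGCGG in 53.3% and 32.7%. These matches are letters in a window and not measured binding sites. On the same reference Col3a1 and Col5a2 are neighbours on chromosome 1, Col6a1 and Col6a2 on chromosome 10, Col4a1 and Col4a2 on chromosome 8, and Col4a5 and Col4a6 on chromosome X.

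In mdx muscle chains of collagen III, V and VI of the interstitial matrix were higher than in normal muscle. The collagen I genes Col1a1 and Col1a2 did not pass the test (limma adjusted p 0.394 and 0.368). Of the 6 collagen IV genes of the basement membrane, 0 passed, and only 3 had a mean above the brightest control. These 3, Col4a1, Col4a2 and Col4a5, had positive differences of 0.54, 0.42 and 1.19. A total of 8 of the 36 genes rose (limma with Benjamini-Hochberg adjustment over all genes, adjusted p under 0.05), against 3.22% of all genes. They were Col3a1, Col5a1, Col5a2 and Col5a3 among the fibrillar collagens, Col6a2 and Col6a3, the fibril-associated Col14a1 and the short-chain Col8a1. The increases ran from 1.47 to 2.11 on the log2 scale, or 2.78-fold to 4.31-fold. By class, 4 of 9 fibrillar genes rose (median difference 1.00), 2 of 3 collagen VI genes (median 1.84), 1 of 9 fibril-associated genes (median -0.03), 1 of 2 short-chain genes and 0 of 6 collagen IV genes (median 0.20). Over all genes the median difference was -0.04. The fit called 0 collagen genes lower, against 1.44% of all genes. At an unadjusted p under 0.05, limma gave 12 of 36 collagen genes in either direction, against 17.3% of all genes. In either direction the adjusted test called 4.66% of all genes. In 6 collagen genes every mdx array was above every normal array, against 2.54% of all genes, and in 0 every mdx array was below, against 1.98%.

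In fiona muscle several fibrillar and collagen VI genes were lower than in mdx muscle. Of the 6 collagen IV genes, only 3 of which had a mean above the brightest control, 0 were called lower. The fit called 9 collagen genes lower, against 6.79% of all genes: Col1a2, Col3a1, Col5a1, Col5a2, Col6a2, Col6a3, Col14a1, Col8a1 and Col7a1. It called 10 higher, against 32.1% of all genes, and these 10 differences were small, between 0.08 and 0.58 on the log2 scale. In either direction 38.9% of all genes were called, and at an unadjusted p under 0.05 limma gave 23 collagen genes, against 48.8% of all genes. In 5 collagen genes every fiona array was below every mdx array, against 2.4% of all genes, and in 10 every fiona array was above, against 30.2%. By class, 4 of 9 fibrillar genes (median difference -1.56) and 2 of 3 collagen VI genes (median -1.46) fell, and of the 6 collagen IV genes 0 fell and 2 rose (median 0.07). Over all genes the median was 0.08.

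Of the 8 genes higher in mdx than normal muscle, 7 (87.5%) were among those lower in fiona muscle, which is 77.8% of the 9. Both comparisons use the same mdx arrays, so these counts are not independent. One limit applies to every fiona minus mdx call below. With the control level of each array as a covariate, a fit chosen after the data were seen, 0 collagen genes were called lower and 0 higher, with Col3a1 at -1.51 (adjusted p 0.19) and Col6a2 at -0.93 (adjusted p 0.926), and over all genes 7 were called higher and 39 lower. The control level lay between 2.65 and 2.75 on mdx and between 2.75 and 2.99 on fiona arrays without overlap, so within this contrast it and the group cannot be told apart. In mdx against normal the same covariate left 5 collagen genes called higher, against 2.08% of all genes. Col5a1, Col5a3 and Col14a1 lost their mdx call there (limma adjusted p 0.059, 0.0717 and 0.129).

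**Figure D2:**
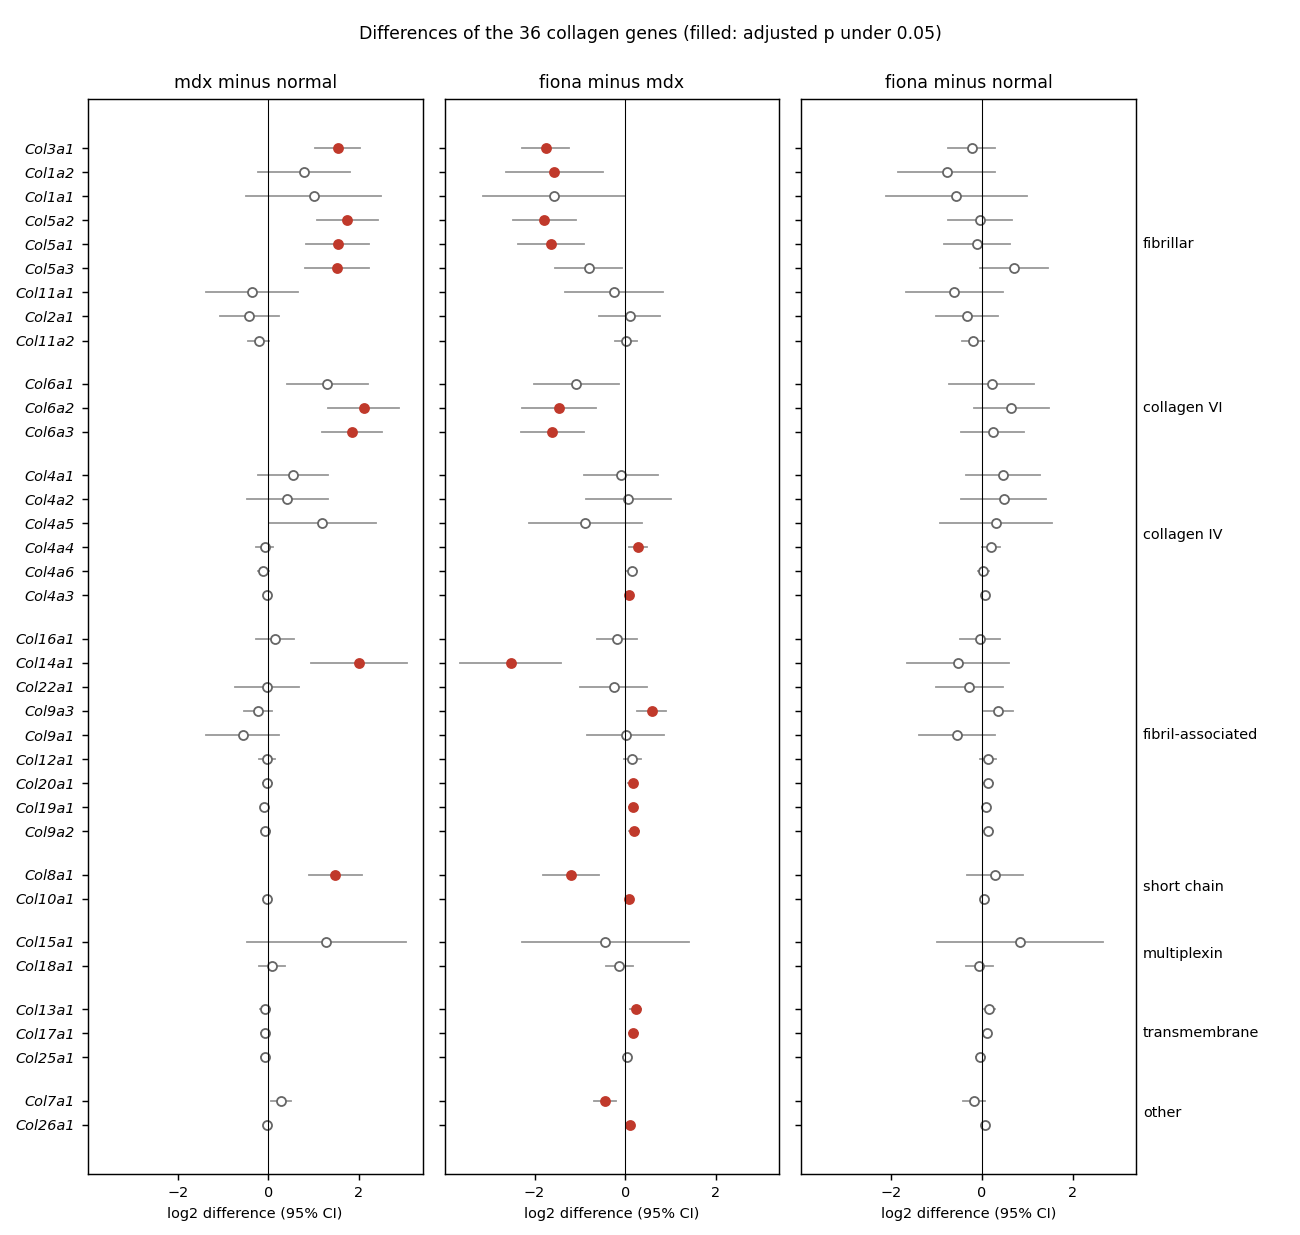
Log2 difference with 95% confidence interval of each of the 36 collagen genes in the 3 comparisons, ordered by class; filled points passed the limma test at an adjusted p under 0.05. The 8 called genes of the first panel lie right of 0, the calls of the second lie on both sides (9 lower, 10 higher), and the third panel has 0 filled points.

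Among the fibrillar collagens, Col3a1 encodes the chain of collagen III, which forms thin fibrils with collagen I. Its lowest, median and highest values were 11.53, 11.91 and 12.25 in normal muscle and 12.81, 13.50 and 13.74 in mdx muscle, and the fiona arrays gave 10.62, 12.08, 12.05, 11.62 and 11.96. Every mdx array was above every normal and every fiona array. Col3a1 rose by 1.53 (SE 0.23, adjusted p 0.000949) in mdx over normal muscle, or 2.88-fold. In fiona muscle it fell by 1.76 against mdx (SE 0.25, adjusted p 0.000531). A second Col3a1 probe set, dimmer than the first, gave larger differences in the same directions, 2.64 and -2.99. The mdx increase of Col3a1 kept its call under all 29 alternatives run, with differences from 1.37 to 2.08.

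Col5a1, Col5a2 and Col5a3 encode the chains of collagen V, which regulates the diameter of collagen I fibrils. Col5a2 spanned 7.53, 8.56 and 8.95 (lowest, median, highest) in normal and 9.28, 10.08 and 10.80 in mdx muscle, with fiona values of 7.28, 8.43, 8.73, 8.69 and 8.70. No mdx array overlapped the other groups. It rose by 1.74 (SE 0.32, adjusted p 0.00361) and fell by 1.78 in fiona against mdx (SE 0.33, adjusted p 0.00504). Col5a1 spanned 7.17, 7.62 and 8.42 in normal and 8.53, 9.08 and 9.96 in mdx muscle, and was 6.35, 8.22, 8.00, 7.79 and 7.66 in fiona. Its mdx arrays were likewise all above the others. Its differences were 1.53 (SE 0.32, adjusted p 0.0111) and -1.64 (SE 0.34, adjusted p 0.0103). A second probe set of Col5a1 and of Col5a2 passed the test in both comparisons too. The third of Col5a1, a dim one, passed in fiona against mdx (-1.30, adjusted p 0.0227) and not in mdx (0.98, adjusted p 0.209).

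Col5a3 was the one called fibrillar gene of mdx muscle without a call in fiona. It spanned 6.31, 7.01 and 8.33 in normal and 8.13, 8.66 and 9.64 in mdx muscle, so the groups overlapped at 1 normal array, normal 6. The increase was 1.52 (SE 0.33, adjusted p 0.0137), or 0.73 (adjusted p 0.0135) as the mean with a second probe set of Col5a3 that lay near the control level. Fiona values of 7.39, 8.23, 8.09, 7.70 and 8.35 lay between the means of the other groups, with a difference from mdx of -0.81 (95% CI -1.55 to -0.07, adjusted p 0.0753).

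Col1a1 and Col1a2 encode collagen I, the main fibril of the interstitium, and both varied widely within groups. Col1a2 was 9.97, 11.29 and 11.97 in normal, 11.44, 12.11 and 12.39 in mdx and 8.35, 11.08, 11.59, 9.92 and 11.17 in fiona muscle. The fiona arrays 1 and 4 were low, and normal and mdx arrays overlapped. Col1a2 did not pass the test in mdx (0.78, adjusted p 0.368) and fell by 1.56 in fiona against mdx (SE 0.50, adjusted p 0.0259), a call that was lost without fiona 1 (-1.04, adjusted p 0.0501) or without fiona 4 (-1.44, adjusted p 0.0526). The fiona call of Col1a2 was also lost under quantile normalization and in a fit of the 2 groups alone. Col1a1 ran from 8.38 to 11.73 in normal and from 10.15 to 12.52 in mdx muscle and was 7.53, 10.97, 11.50, 8.73 and 10.71 in fiona. Its differences of 1.00 (adjusted p 0.394) and -1.57 (adjusted p 0.0995) did not pass. Second probe sets gave -0.45 for Col1a1 and -1.29 (adjusted p 0.0984) for Col1a2 in fiona against mdx.

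Col2a1, Col11a1 and Col11a2 are fibrillar collagens of cartilage. Col2a1 was highest on normal 4 at 5.89, with 3.96 as the next value on any array. Col11a1 was highest on normal 3 (6.53) and normal 4 (6.17), and so was Col9a1, a cartilage collagen of the fibril-associated class, on normal 4 (6.28). Col11a2 averaged 3.21, 2.99 and 3.00 in normal, mdx and fiona muscle. These genes passed no test, with mdx minus normal differences of -0.42 for Col2a1, -0.36 for Col11a1 and -0.57 for Col9a1. The tendon and cartilage markers Tnmd (9.68), Comp (7.84), Fmod (12.8) and Chad (7.78) were highest among normal arrays on normal 3, and Acan, the large proteoglycan of cartilage, lay at or under the control level on all 17 arrays. The part of tendon in these values was not tested.

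**Figure D3:**
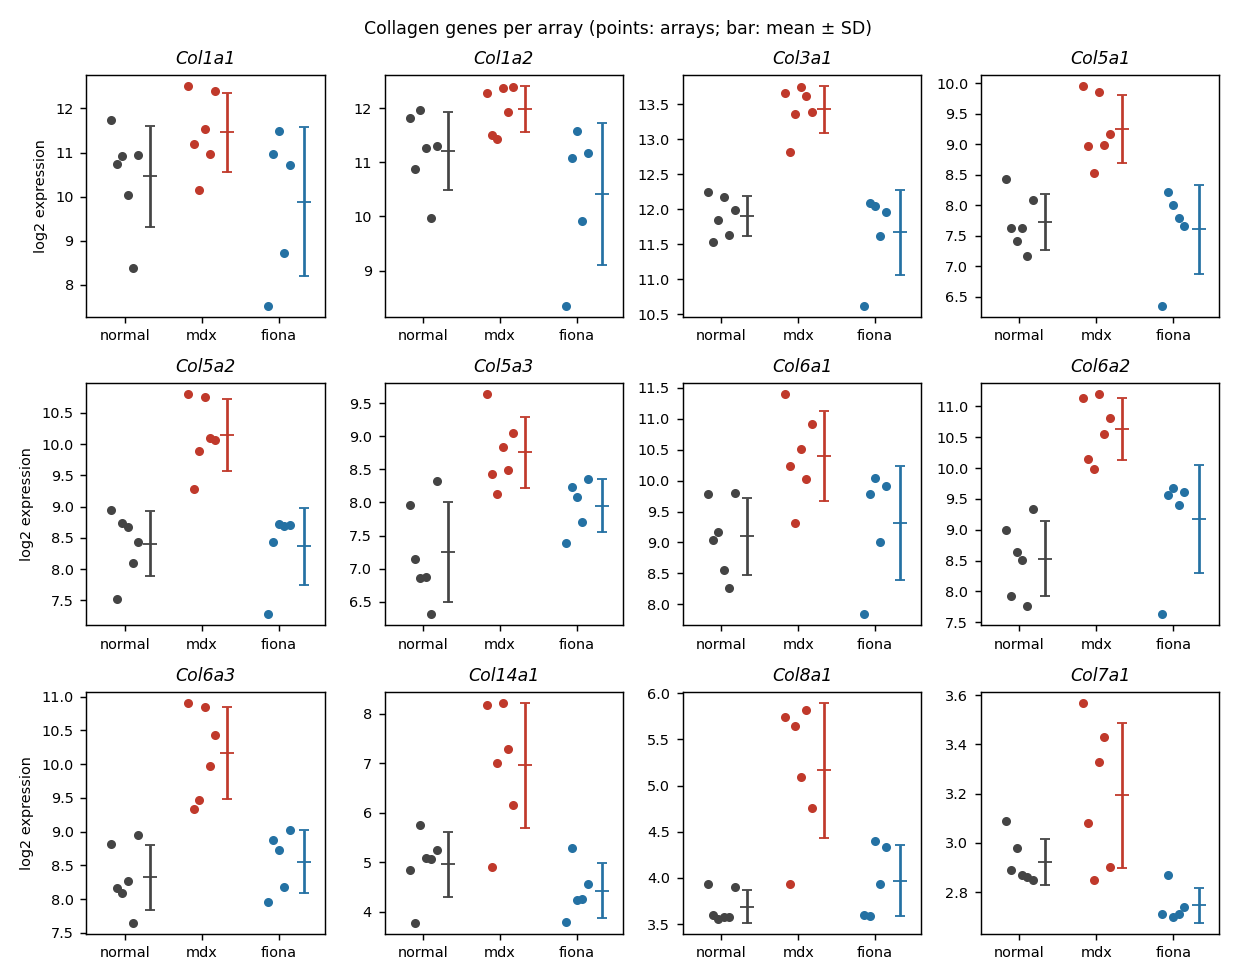
Log2 expression of 12 collagen genes, 1 point per array, with mean and SD beside the points (normal n = 6, mdx n = 6, fiona n = 5). For Col3a1, Col5a1, Col5a2, Col6a2 and Col6a3 every mdx array lies above every other array, and fiona 1 is the lowest fiona array of each of these 5 genes.

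Collagen VI is assembled from the chains of Col6a1, Col6a2 and Col6a3, the genes whose mutations cause collagen VI myopathies. Col6a2 spanned 7.77, 8.57 and 9.34 in normal and 9.99, 10.68 and 11.20 in mdx muscle, and the fiona arrays gave 7.63, 9.56, 9.67, 9.40 and 9.61. All mdx arrays were above all others, and 4 of 5 fiona arrays were above all normal arrays. Col6a2 rose by 2.11 in mdx (SE 0.37, adjusted p 0.00275), or 4.31-fold, and fell by 1.46 in fiona against mdx (SE 0.39, adjusted p 0.0139). The fiona call was lost when the mean of its probe sets was used (-1.29, adjusted p 0.0638).

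Col6a3 spanned 7.65, 8.21 and 8.95 in normal and 9.33, 10.20 and 10.91 in mdx muscle and was 7.95, 8.87, 8.73, 8.18 and 9.03 in fiona. Again no mdx array overlapped the others. Its differences were 1.84 (SE 0.31, adjusted p 0.00213) and -1.61 (SE 0.33, adjusted p 0.00908). Col6a1 went the same way without a call: 8.27, 9.10 and 9.80 in normal, 9.31, 10.37 and 11.40 in mdx, and 7.84, 9.78, 10.05, 9.00 and 9.92 in fiona muscle. Of the mdx arrays, 5 of 6 were above all normal arrays. The differences were 1.30 (95% CI 0.40 to 2.19, adjusted p 0.102) and -1.08 (95% CI -2.02 to -0.14, adjusted p 0.0629).

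Col14a1 encodes a fibril-associated collagen that binds the surface of collagen I fibrils and had the largest fiona minus mdx difference of the 36 genes. It spanned 3.78, 5.07 and 5.75 in normal and 4.91, 7.14 and 8.21 in mdx muscle and was 3.79, 5.29, 4.24, 4.26 and 4.56 in fiona. Array mdx 2, at 4.91, lay within the range of both other groups, and the other mdx arrays were above them. Col14a1 rose by 2.00 (SE 0.50, adjusted p 0.0311) and fell by 2.53 in fiona against mdx (SE 0.53, adjusted p 0.0105), or 5.79-fold. The mdx call was lost when any 1 of 8 arrays was left out (normal 1, 2, 4 and 5, and mdx 1, 3, 4 and 5), with differences of 1.75 to 2.02 and adjusted p from 0.0544 to 0.0753. It was also lost in a fit of the 2 groups alone (adjusted p 0.0737), and a second, dim Col14a1 probe set passed neither comparison (0.71, adjusted p 0.257, and -0.68, adjusted p 0.106).

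Of the other fibril-associated genes, Col16a1 averaged 6.10 ± 0.43 (SD, n = 6) in normal, 6.25 ± 0.35 (n = 6) in mdx and 6.06 ± 0.20 (n = 5) in fiona muscle. Col22a1, a collagen of the muscle-tendon junction, averaged 5.24 ± 0.61, 5.21 ± 0.73 and 4.96 ± 0.31. Neither passed a test, and the 95% intervals for mdx minus normal were -0.27 to 0.56 and -0.74 to 0.67. Col12a1, another fibril-associated chain of tendon and muscle, stayed near the brightest control at 3.75, 3.73 and 3.88.

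Col8a1 encodes a short-chain network collagen known from vessel walls. It spanned 3.55, 3.59 and 3.93 in normal and 3.93, 5.37 and 5.82 in mdx muscle and was 3.60, 3.59, 4.40, 3.93 and 4.33 in fiona. The lowest mdx array (mdx 2) and the highest normal array were equal at this rounding, and only 2 of 6 normal arrays were above the brightest control. Its differences were 1.47 (SE 0.28, adjusted p 0.00452) and -1.19 (SE 0.29, adjusted p 0.0135), with the normal side near the controls. As the mean with a second Col8a1 probe set under the control level they were 0.73 and -0.57, both still called. Col7a1, the chain of anchoring fibrils, was called only in fiona against mdx. It was 2.71, 2.87, 2.70, 2.71 and 2.74 in fiona and ran from 2.85 to 3.57 in mdx muscle, with 4 of 5 fiona arrays at or under the control level. In all 3 groups every array also lay under the brightest control, so the size of this difference is uncertain. It was -0.45 on the deposited values (adjusted p 0.0135), or a decrease of 0.28 with fiona arrays at or under the control level set to it. Col7a1 did not pass in mdx against normal (0.27, adjusted p 0.187).

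The collagen IV genes and Col15a1 of the fibre surface showed no call in mdx. Col4a1 and Col4a2, the chains of the main basement membrane network, averaged 10.42 ± 0.71 and 9.34 ± 0.68 in normal (n = 6), 10.96 ± 0.56 and 9.76 ± 0.83 in mdx (n = 6), and 10.88 ± 0.69 and 9.82 ± 0.74 in fiona muscle (n = 5). Their mdx minus normal differences were 0.54 (95% CI -0.24 to 1.32) and 0.42 (95% CI -0.48 to 1.31). Col15a1, a multiplexin of the zone next to the basement membrane, averaged 6.27 ± 1.59, 7.55 ± 1.37 and 7.11 ± 1.46, with a difference of 1.28 (95% CI -0.47 to 3.03, adjusted p 0.375). Col4a5, from the X chromosome, differed by 1.19 (95% CI 0.00 to 2.37, adjusted p 0.286), and its highest values were 6.57, 6.31 and 5.31 on mdx 3, 5 and 4.

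Several of these genes differed between the array sets. The mean difference of set 2 minus set 1 within groups was 2.54 for Col15a1, 1.81 for Col1a1, 1.17 for Col4a2, 1.09 for Col6a1, 0.95 for Col4a1 and -1.41 for Col4a5. For Col15a1 every set 2 array lay above every set 1 array, at 7.31 to 9.22 against 4.54 to 7.28. For Col3a1 the same difference was 0.22 and for Col5a2 0.08. Endothelial markers moved with the sets too, averaging 6.53 and 7.47 on set 1 and set 2 arrays of normal muscle, 6.48 and 6.82 of mdx and 6.60 and 7.19 of fiona. The part of vessels in these collagen values was not tested.

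**Figure D4:**
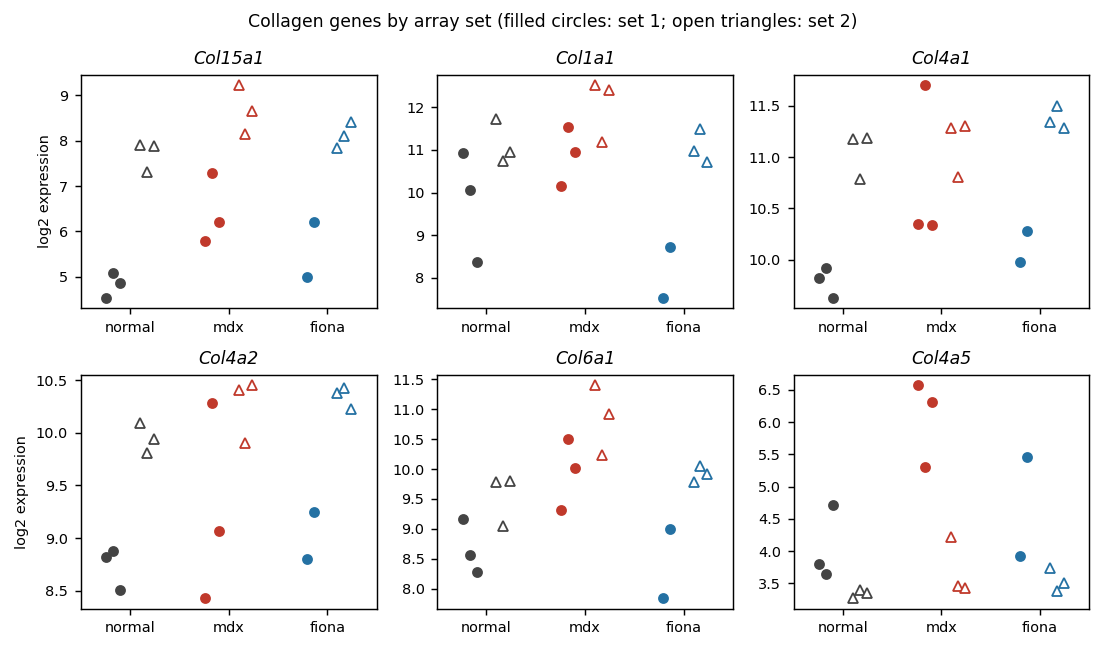
Log2 expression of 6 collagen genes by group, with filled circles for array set 1 and open triangles for set 2. Set 2 arrays are high for Col15a1 and low for Col4a5 in all 3 groups.

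With the array set as a block, 11 collagen genes were called higher in mdx than normal muscle, against 5.73% of all genes. The 3 added were Col15a1 (adjusted p 0.00966), Col6a1 (adjusted p 0.00788) and Col4a5 (adjusted p 0.0482). The sets were derived from the residual spread of these same values, so blocking on them reduces that spread by construction. The adjusted p of this fit may therefore be too small. In fiona against mdx the same fit called 12 lower, against 9.48% of all genes, adding Col1a1 (-1.74, adjusted p 0.0169), Col5a3 (-0.89, adjusted p 0.0157) and Col6a1 (-1.19, adjusted p 0.0134). Within set 1 alone, 7 collagen genes were higher and 4 lower (Col9a2, Col9a3, Col17a1 and Col19a1) in mdx than normal muscle, against 5.56% and 15.1% of all genes. In fiona against mdx that fit called 6 higher and 10 lower, against 28.2% and 6.43% of all genes. Within set 2 alone, Col3a1 was the single collagen gene called in mdx (1.37, higher), against 1.39% of all genes higher and 0.807% lower. In fiona against mdx that fit called 0 collagen genes, against 0.105% of all genes higher and 0.783% lower. The fits within sets were chosen after the data were seen, and each had 2 or 3 arrays per group.

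Col3a1 kept both calls without the 7 female-pattern arrays, which left 5 normal, 4 mdx and 1 fiona array (fiona 4), a fit chosen after the data were seen. The mdx minus normal differences there were 1.41 for Col3a1, 1.27 for Col5a1, 2.00 for Col6a2 and 1.60 for Col6a3. The mdx calls of Col5a2, Col5a3, Col8a1 and Col14a1 were lost in that fit. For fiona against mdx, Col3a1 was called lower (-1.68, adjusted p 0.0204), with the lone fiona array assumed to vary like the others, and 2.905% of all genes were called lower in that fit. The mdx arrays kept there include mdx 6, which had both Xist (5.40) and Eif2s3y (8.11) signal. With the female pattern as a covariate on all arrays, 8 collagen genes were higher in mdx, against 3.07% of all genes. In fiona against mdx 9 were higher and 11 lower, against 30.4% and 7.94% of all genes.

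The 10 collagen genes called higher in fiona than mdx muscle were Col4a3, Col4a4, Col9a2, Col9a3, Col10a1, Col13a1, Col17a1, Col19a1, Col20a1 and Col26a1. They come from 5 classes, among them chains of kidney and cochlear basement membrane (Col4a3 and Col4a4), cartilage (Col9a2, Col9a3 and Col10a1) and skin (Col17a1). Their levels were low: 9 of the 10 had a mean at or under the brightest control, 8 were under it on all 17 arrays, and 3 were at or under the control level on all arrays. Col9a3, the exception, ran from 3.67 to 3.92 in mdx and was 4.17, 3.90, 4.55, 4.37 and 4.89 in fiona muscle, a difference of 0.58 (SE 0.15, adjusted p 0.0138). Only fiona 2 lay within the mdx range.

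Means in normal, mdx and fiona muscle were 3.70, 3.62 and 3.89 for Col4a4, 3.50, 3.48 and 3.64 for Col20a1, and 2.99, 2.90 and 3.06 for Col19a1. They were 2.92, 2.85 and 3.04 for Col9a2, 2.85, 2.78 and 3.01 for Col13a1, and 2.74, 2.67 and 2.85 for Col17a1. For the 3 genes at the control level they were 2.51, 2.49 and 2.57 (Col4a3), 2.54, 2.50 and 2.59 (Col10a1), and 2.42, 2.38 and 2.48 (Col26a1). In each of the 10 genes the mdx mean was the lowest of the groups and the fiona mean the highest. That fiona lay above mdx follows from how the 10 were picked. The control level had the same order, with means of 2.77, 2.70 and 2.89 in normal, mdx and fiona muscle. The fiona minus mdx differences were 0.27 for Col4a4 (adjusted p 0.0319), 0.23 for Col13a1 (0.0135), 0.20 for Col9a2 (0.0137), 0.18 for Col17a1 (0.0135), 0.17 for Col19a1 (0.0135) and 0.16 for Col20a1 (0.0162). They were 0.10 for Col26a1 (adjusted p 0.0228), 0.09 for Col10a1 (0.0308) and 0.08 for Col4a3 (0.0353). None of the 10 was called by limma in mdx against normal (adjusted p from 0.235 to 0.746, with Col19a1 alone at an unadjusted p under 0.05) or in fiona against normal (adjusted p from 0.21 to 0.339). The dim genes without a call stayed near their means of 2.82, 2.89 and 2.76 for Col18a1, the source of endostatin, 2.12, 2.04 and 2.08 for Col25a1, and 3.64, 3.53 and 3.67 for Col4a6.

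The control level was 0.20 higher in fiona than mdx muscle, more than 7 of these 10 differences. Among all genes with a mean at or under the brightest control, 58.5% were called higher and 1.32% lower in fiona against mdx, and among those above it 9.25% and 11.5%. The mean of the 14 dim collagen genes was 2.82 to 2.97 on normal, 2.84 to 2.91 on mdx and 2.89 to 3.04 on fiona arrays. When arrays were centred on their medians, the counts were 4 higher and 9 lower, and over all genes 927 higher and 762 lower, against 3977 and 841 without centring. The calls of Col4a3, Col4a4, Col10a1 and Col26a1 were lost without mdx 5, without fiona 3 or without fiona 5. Each of these fits gave 6 calls higher, against 22.1%, 22.9% and 21.1% of all genes. Whether the shift of the dim genes is an effect of the array or of the muscle was not tested.

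**Figure D5:**
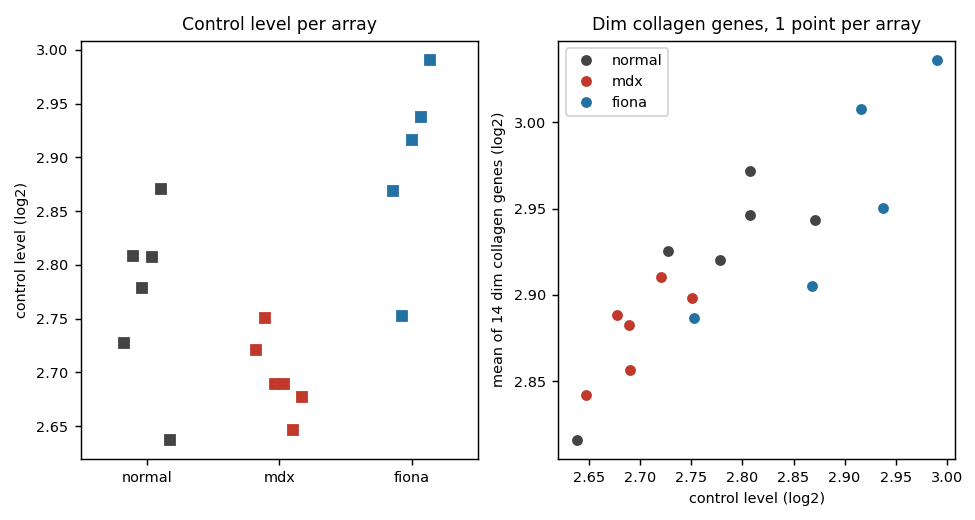
Left, control level (median log2 of 15 bacterial control probe sets) of each array by group; right, mean log2 of the 14 dim collagen genes against the control level, 1 point per array. Fiona control levels (2.75 to 2.99) lie above those of mdx (2.65 to 2.75), and the dim collagen means run from 2.84 to 2.91 on mdx and from 2.89 to 3.04 on fiona arrays.

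Against normal muscle, fiona muscle showed 0 of 36 collagen genes called in either direction, as for all 12393 genes (0% called). Without fiona 2, 6.91% of all genes were called higher and 0.952% lower, and 3 of 36 collagen genes higher (Col13a1, Col17a1 and Col20a1). In 0 of 36 genes were the groups without overlap (0.339% of all genes higher, 0.5% lower). At an unadjusted p under 0.05 limma gave 5 collagen genes, all higher in fiona and all among the small differences above, against 21.2% of all genes. A missed threshold does not show equal levels, and the intervals were wide for several members. Even Dmd, mutated in the fiona line, was not called in this comparison, at -3.30 (limma adjusted p 0.106). Col3a1 differed by -0.23 (95% CI -0.75 to 0.29), Col5a2 by -0.04 (-0.74 to 0.66), Col5a1 by -0.12 (-0.84 to 0.61) and Col6a3 by 0.23 (-0.46 to 0.93). The other called genes were Col8a1 at 0.28 (-0.34 to 0.90), Col7a1 at -0.18 (-0.41 to 0.06), Col6a2 at 0.64 (-0.18 to 1.47), Col5a3 at 0.70 (-0.04 to 1.44), Col14a1 at -0.53 (-1.65 to 0.59) and Col1a2 at -0.78 (-1.85 to 0.30). Of the 22 genes with a mean above the brightest control, 8 had their highest mean in mdx and lowest in normal muscle, and 7 had their highest in mdx and lowest in fiona muscle.

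Genes that make and remodel collagen were read from lists. Of 15 measured genes for hydroxylation and folding of the chains, 1 rose in mdx muscle, Ppib, a prolyl isomerase of the endoplasmic reticulum (0.94, adjusted p 0.0316). In fiona against mdx, 3 fell: Crtap, a partner of prolyl 3-hydroxylase (-1.23), Ppib (-1.01) and Serpinh1, the collagen chaperone HSP47 (-0.89). The list medians were 0.48 and -0.49. Of 12 genes for propeptide processing and cross-linking, Loxl1, a lysyl oxidase, rose in mdx (1.83, adjusted p 0.0204). In fiona against mdx 4 were called lower and 3 higher: Lox (-2.13), Loxl1 (-1.89), Pcolce, the enhancer of C-propeptide cleavage (-1.51), and Tgm2 (-0.80) fell, while the dim Tll1, Tll2 and Mep1b were called higher by at most 0.25.

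Of 8 collagen-degrading proteases, 4 rose in mdx muscle, namely Ctsk, cathepsin K (2.07), Fap (1.57), Mmp14 (1.31) and Mmp2, gelatinase A (1.16). Mmp13 (0.45), Mmp9 (-0.20), Mmp1a (-0.05) and Mmp8 (-0.04) were not called in mdx. The same 4 fell in fiona against mdx, with differences of -2.63 for Ctsk, -1.73 for Mmp2, -1.28 for Fap and -1.21 for Mmp14, and Mmp1a (0.18) and Mmp8 (0.16) were called higher with group means under the control level, by less than the 0.20 by which the control level itself differed. Of 7 collagen receptors and uptake genes, 0 were called in mdx (1 at an unadjusted limma p under 0.05). In fiona Mrc2, an endocytic collagen receptor, fell by 1.32, and the dim Itga2 was called higher by 0.10. In fiona against normal muscle 0 genes of these 4 lists were called, with 5 at an unadjusted limma p under 0.05.

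Macrophage and regenerating fibre markers were higher in mdx and lower in fiona muscle. In bulk muscle, fewer cells of a type and less RNA per cell cannot be told apart. Of 9 fibroblast and fibro-adipogenic markers, 0 were called in mdx against normal (3 at an unadjusted limma p under 0.05) and 5 fell in fiona against mdx, namely Pdgfra (-1.94), Mfap5 (-1.91), Dpt (-0.99), Dcn (-0.93) and Gsn (-0.86). Their mean level was 7.68 to 8.66 on normal, 8.31 to 8.97 on mdx and 7.43 to 8.15 on fiona arrays. Of 10 macrophage markers, 7 rose in mdx and 8 fell in fiona, with mean levels of 4.15 to 4.99, 6.33 to 7.59 and 4.20 to 4.86. Of 10 regenerating fibre markers, 8 rose and 9 fell, with mean levels of 5.22 to 5.52, 6.88 to 9.31 and 5.66 to 6.03. Of 10 endothelial markers limma called 0 in mdx against normal (2 at an unadjusted p under 0.05) and 0 in fiona against mdx (1 at an unadjusted p under 0.05). Of 10 smooth muscle and pericyte markers, Rgs5 fell in mdx (-0.56) and rose in fiona against mdx (0.49). Of 7 Schwann cell and nerve markers, 1 rose in mdx and 1 fell in fiona against mdx, in both cases Ncam1. Ncam1 is also among the 10 regenerating fibre markers and is counted there too. In fiona 2 were called higher, S100b (0.12) and Gfra3 (0.09), with group means under the control level. Both differences were less than the 0.20 by which the control level itself differed between fiona and mdx muscle. Of 8 tendon and cartilage markers, limma called 0 in mdx (1 at an unadjusted p under 0.05), and Thbs4 fell in fiona (-1.17). Of 10 muscle fibre markers, limma called 0 in mdx (2 at an unadjusted p under 0.05), and Myh1 (0.22) and Mb (0.57) rose in fiona. The part of these cells in the collagen values was not tested.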

How the data were processed

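Each of the 17 samples was hybridised to its own Affymetrix array. The values analysed are log2 signals of probe sets as deposited by the authors. Both RMA and GCRMA stand in the submitters' processing notes, without saying which gave this table (not given in the sources used here). Of 22690 probe sets, 20380 list exactly 1 gene symbol and cover 12393 genes. The 64 control probe sets, 691 probe sets with several symbols and 1555 without a symbol did not enter the fit. No filter on level was applied.

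One limma model (version 3.58.1, R 4.3.3, functions lmFit and eBayes) held 3 group means without covariates. Calls used an adjusted p under 0.05 after Benjamini-Hochberg correction across the 12393 genes. Differences are the first group named minus the second. For Col7a1, the difference is also given with fiona arrays at or under the control level set to it. The fit was tested on simulated data. All 36 genes are accounted for: those called in any comparison are given with values in every group, the others by class with the brightest member of each class, and of the other lists up to 3 called genes, with a few more named after their values were seen. The members, classes and lists were chosen with earlier results of these data known. The labels call the arrays biological replicates. P values measure the spread between these arrays. Promoter windows are from RefSeq, GRCm38.p6. Plots used matplotlib 3.10.9 under Python 3.11.15. Alternatives tried were other scalings, a filter on dim genes, probe set means, blocks, covariates, fits of fewer groups and arrays left out.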

Additional observations from a re-analysis of the deposited data

Results flagged for a closer look

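In 18 of 108 groups of arrays tested (36 genes in 3 groups), 1 array stood far from the others of its group by Dixon's test, where chance alone gives about 1 in 20. In the fiona group, fiona 1 was low for Col6a2 at 7.63 (next 9.40) and for Col5a2 at 7.28 (next 8.43). Without fiona 1 both genes were still lower than in mdx muscle, Col6a2 by -1.07 and Col5a2 by -1.51. Fiona 4 was high for Col4a5 at 5.46 (next 3.93), fiona 5 for Col12a1 at 4.21 (next 3.86), and fiona 2 for Col2a1 at 3.88 (next 3.71) and for Col7a1 at 2.87 (next 2.74).

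In the normal group, normal 4 was high for the cartilage collagens Col9a1 at 6.28 (next 4.29) and Col2a1 at 5.89 (next 3.96). Normal 6 was low for Col16a1 at 5.27 (next 6.17) and Col4a3 at 2.44 (next 2.51), and high for Col25a1 at 2.36 (next 2.10). Normal 5 was high for Col4a5 at 4.72 (next 3.80), and normal 1 for Col18a1 at 3.32 (next 2.75).

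In the mdx group, mdx 1 was high for Col16a1 at 6.93 (next 6.26), mdx 4 for Col12a1 at 3.99 (next 3.72), mdx 6 for Col18a1 at 3.50 (next 2.85) and mdx 2 for Col25a1 at 2.06 (next 2.04), while mdx 5 was low for Col4a6 at 3.43 (next 3.53).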

How the results depend on the processing

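The mdx increase of Col3a1, Col5a1, Col5a2, Col5a3, Col6a2, Col6a3, Col8a1 and Col14a1 and the fiona decrease of the 9 genes kept their direction under the alternatives run. Counts of calls moved. The share of all genes called stands in brackets after each count. Collagen genes higher in fiona than mdx, 10 in the main fit (32.1%), were 4 with median-centred arrays (7.48%) and 4 with quantile normalization (11.55%). They were 4 with the filter on dim genes (15.1%) and 0 with the control level as a covariate (0.0565%). Within array set 1 they were 6 (28.2%) and within set 2 0 (0.105%). Genes lower in fiona than mdx, 9 in the main fit (6.79%), were 0 with the control level as a covariate (0.315%) and 0 within set 2 (0.783%). On male-pattern arrays, with 1 fiona array, all of these decreases but that of Col3a1 lost their call. Genes higher in mdx than normal, 8 in the main fit (3.22%), were 5 with the control level (2.08%) and 1 within set 2 (1.39%). Genes lower, 0 in the main fit (1.44%), were 4 within set 1 (15.1%). The fits with the control level, within array sets and on male-pattern arrays were chosen after the data were seen. With 1 array left out at a time, 7 to 8 collagen genes were higher in mdx than normal, against 2.48% to 4.06% of all genes. In that comparison 0 were lower, against 0.984% to 1.525%. In fiona against mdx 6 to 11 were higher, against 21.1% to 35.25%, and 8 to 10 lower, against 4.62% to 7.85%. In fiona against normal 0 to 3 were higher and 0 lower, against 0% to 6.91% and 0% to 0.952%. The 3 appeared without fiona 2 (Col13a1, Col17a1 and Col20a1), where 6.91% of all genes were called higher. The 6 appeared without mdx 5, fiona 3 or fiona 5.

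Small differences in fiona against mdx turned negative: Col4a3 to -0.027 (median-centred) and -0.01 (quantile), Col10a1 to -0.017, -0.003 and -0.009 (control level), Col26a1 to -0.003 (median-centred), and with the control level Col4a4 to -0.052, Col9a3 to -0.068 and Col20a1 to -0.023. The cause was not tested. Centring moved the median of all genes in that comparison from 0.08 to -0.02 and the calls higher from 3977 to 927, with 762 lower instead of 841. The main fit did not pair arrays by number. Residuals of same-numbered normal and mdx arrays correlated at 0.09 to 0.61 (median 0.40), against -0.61 to 0.61 (median -0.2) for other numbers. For mdx and fiona the same-numbered range was -0.42 to 0.30 (median -0.23, other numbers -0.03). For normal and fiona it was -0.49 to 0.48 (median -0.34, other numbers 0.04). Of 6 normal arrays, 1 correlated best with the mdx array of its number. Whether normal and mdx arrays of the same number were processed together was not tested. Numbers 3, 4 and 5 of normal and mdx lay in array set 1 and the other numbers of both in set 2. The fit with the replicate block called 7 collagen genes higher in mdx, against 2.90% of all genes (Col14a1 lost, adjusted p 0.0688). In fiona against mdx it called 0 higher and 6 lower, against 1.49% and 2.61% of all genes. There Col1a2, Col5a1 and Col6a2 were lost (adjusted p 0.081, 0.0507 and 0.0568). With the mean of probe sets the mdx differences of Col5a3 and Col8a1 were 0.73 each.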
